A study of Mus musculus with 4 samples.

Results

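Cybb, Cyba, Ncf1, Ncf4 and Rac2 encode components of the phagocyte NADPH oxidase. They were taken by their symbols from the gene rows of the 4 libraries, 5 of 32285 genes, and each symbol matched 1 row. All 5 were counted in every cell class described here. Over the granulocyte series, their levels were lowest in stem-like cells, higher in early granulocyte-like cells and highest in intermediate and late granulocyte-like cells, apart from Cybb in the Mll4SI library, whose stem-like and early levels lay within 1.5-fold of each other. Between libraries, all 5 genes in intermediate and late cells lay within 1.5-fold of control. Cybb was past 1.5-fold higher in stem-like cells of every other library, in early cells of Mll4SI and Mll3/4SI and in monocyte-like Mll4SI cells. Ncf1 was past 1.5-fold lower in early Mll3/4SI cells. The stem-like Cybb ratios rest on a low control level and are not read for direction.

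The phagocyte NADPH oxidase moves electrons from NADPH inside the cell to oxygen across a membrane and so makes superoxide, the first product of the respiratory burst of neutrophils and monocytes. Cybb (gp91phox, also named NOX2) is the catalytic subunit and Cyba (p22phox) the partner that stabilises it in the membrane. Ncf1 (p47phox, the organiser) and Ncf4 (p40phox) are cytosolic subunits that join the membrane pair on activation. Rac2 is the small GTPase of blood cells that binds the assembled complex. Loss of subunits of this complex is the basis of chronic granulomatous disease.

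The study measured RNA and surface antibodies in single mouse bone marrow cells (CITE-seq). The cells were CD45.2+Kit+ and were collected 10 weeks after transplantation, so all 4 groups share a transplanted host, about which the labels give nothing more. Each group is 1 library: control (library name wt), Mll3SI (mll3KI), Mll4SI (mll4KI) and Mll3/4SI (dKI). The genes altered in the last 3 by their names, Kmt2c for MLL3 and Kmt2d for MLL4, code for enzymes that methylate histone H3 at enhancers, and the labels do not spell out SI or give strain, age of the animals, number of animals pooled, or a promoter or Cre.

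With 1 library per group no test between groups was possible, so every difference below compares libraries, not conditions. Levels are unique molecular identifiers (UMIs) added up over all cells that a library has in a class, per 1000000 gene UMIs of those cells (CPM), with exact Poisson 95% intervals that cover counting error only. Differences are log2 ratios of CPM + 1, their exact counting intervals are of the ratio without the added 1, and a ratio past 1.5-fold is counted as such and set beside the share of all genes with a mean of at least 10 CPM that passed the same fold. The 3 comparisons with control share the control library.

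The libraries held 7887 to 11678 barcodes with 140546094 to 177753607 gene UMIs, and 6701, 7971, 10142 and 6735 cells were kept for control, Mll3SI, Mll4SI and Mll3/4SI. Of 36459 barcode sequences, 127 occurred in more than 1 library. The targeted genes were counted in all libraries, Kmt2c at 110 to 147 CPM and Kmt2d at 33.3 to 41.3 CPM, and the labels do not say that the alleles lower their RNA. Xist was at 0.0317 and 0.196 CPM in control and Mll3SI and at 1150 and 1360 CPM in Mll4SI and Mll3/4SI, and the Y-linked Eif2s3y had 63.3, 62.0, 0 and 0 CPM. The libraries therefore also differ in the sex of the cells they hold, which cannot be told apart from group, and Cybb is X-linked.

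Cells were clustered without the 5 genes and without the other genes listed here, and clusters were named from markers by a rule set after the clusters were seen, so the names are rebuilt here. Stem-like cells numbered 413, 415, 297 and 154 in control, Mll3SI, Mll4SI and Mll3/4SI, and early granulocyte-like cells 727, 1248, 507 and 1445. Intermediate granulocyte-like cells numbered 1091, 1625, 557 and 599, late ones 2367, 2233, 6726 and 2595, and monocyte-like cells 724, 1004, 922 and 296. Of the marker lists, 12 of 12 stem, 7 of 8 early, 2 to 4 of 7 intermediate, 7 to 9 of 10 late and 9 to 10 of 10 monocyte markers were highest in their own class in each library. The intermediate class is thus the least well marked. Monocyte-like cells also had early granulocyte markers at a summed 17586 to 19657 CPM over the libraries, among them Elane at 4830 to 5927 CPM. What their part was in the levels of this class was not tested. The sorting marker Kit was at 235 to 292 CPM in stem-like, 123 to 151 in early and 33.9 to 54.6 in late cells, and the CD117 antibody took 13.8 to 16.2% of surface antibody UMIs in stem-like and 2.06 to 3.78% in late cells.

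In mouse build GRCm38 (GENCODE M21), Cybb (ENSMUSG00000015340) lies on the minus strand of chromosome X from 9435252 to 9487771. Cyba (ENSMUSG00000006519) lies on the minus strand of chromosome 8 from 122424776 to 122432930, where a gene on the other strand, Gm20388, overlaps it. Ncf1 (ENSMUSG00000015950) lies on the minus strand of chromosome 5 from 134220053 to 134229625 and is overlapped on the other strand by Gtf2ird2. Whether the counting used strand is not given in the sources used here, so reads from these overlaps cannot be assigned with certainty. Ncf4 (ENSMUSG00000071715, plus strand, 78244801 to 78262580) and Rac2 (ENSMUSG00000033220, minus strand, 78559167 to 78572783) are both on chromosome 15.

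The 250 bases before the RefSeq start were available for Cybb, Cyba and Ncf1 (RefSeq, GRCm38.p6, minus strand, each read 5′ to 3′ toward the start). They are shown because Cybb and Ncf1 are the genes whose levels differed past 1.5-fold between libraries, in the same cells in opposite directions, while Cyba stayed within it. The Cybb window lies inside the GENCODE span given above (9435252 to 9487771), so the RefSeq start used for it differs from the GENCODE start. The Cyba and Ncf1 windows lie outside their spans. Capitals mark each match, on either strand, to GAAA followed by 2 bases of any kind and GAAA again, an arrangement found in interferon-responsive elements.
Cybb, chrX:9469325-9469574: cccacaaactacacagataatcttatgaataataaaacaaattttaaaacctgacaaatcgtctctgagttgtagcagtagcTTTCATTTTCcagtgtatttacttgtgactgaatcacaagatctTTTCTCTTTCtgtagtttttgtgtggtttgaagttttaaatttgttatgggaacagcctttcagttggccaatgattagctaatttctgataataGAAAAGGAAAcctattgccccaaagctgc
Cyba, chr8:122432941-122433190: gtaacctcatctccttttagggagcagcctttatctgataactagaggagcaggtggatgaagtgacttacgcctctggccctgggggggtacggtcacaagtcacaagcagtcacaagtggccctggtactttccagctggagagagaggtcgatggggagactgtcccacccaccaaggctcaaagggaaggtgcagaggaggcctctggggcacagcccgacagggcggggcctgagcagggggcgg
Ncf1, chr5:134229626-134229875: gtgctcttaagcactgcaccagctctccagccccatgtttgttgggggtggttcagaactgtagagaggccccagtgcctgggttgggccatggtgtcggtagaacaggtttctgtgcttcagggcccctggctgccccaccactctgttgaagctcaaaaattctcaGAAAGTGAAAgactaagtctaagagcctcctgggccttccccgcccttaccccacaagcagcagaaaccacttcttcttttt
The Cybb window, which is 34.0% G and C, held 3 such matches, at bases 168 to 159, 124 to 115 and 29 to 20 before the start, and 2 of them overlap a GGAA. The Ncf1 window (54.4% G and C) held 1, at bases 82 to 73, and the Cyba window (60.0%) held 0. Of 32851 mouse promoter windows of this length, 2.98% held at least 1 match. GGAA, the core read by ETS factors such as PU.1, occurred 3 times in Cybb, 2 times in Cyba and once in Ncf1, and in 93.4% of windows. TTCNNNGAA occurred in Ncf1 at bases 88 to 80, overlapping the marked match, in 7.02% of windows and not in the other 2 shown. GAGGAA (in 23.3% of windows) and TTNCNNAA (in 36.8%) were in none of the 3. Both strands were searched, and a match describes the letters of a window, not a bound site.

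The first comparison followed each gene through the cell classes inside 1 library. Cybb, the catalytic subunit, had 9.17 CPM in control stem-like cells (95% interval 7.13 to 11.6, 69 UMIs), and the other libraries had 20.1 (Mll3SI), 106 (Mll4SI) and 15.3 (Mll3/4SI, 11.3 to 20.4, 47 UMIs). In early granulocyte-like cells it had 52.7, 63.9, 148 and 157 CPM in the same order of libraries. It had 1886, 1781, 2173 and 1694 CPM in intermediate cells and 2239, 2210, 2710 and 1776 CPM in late cells. On the CPM + 1 scale, late cells were 41.7, 34.1, 18.2 and 11.2 times as high as early cells in control, Mll3SI, Mll4SI and Mll3/4SI. Monocyte-like cells had 106, 105, 171 and 124 CPM. Ordered by level, the ranges over the 4 libraries overlapped between stem-like and early, between early and monocyte-like, and between intermediate and late cells, and a wide gap separated the last pair from all others.

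Cyba, the membrane partner, spanned a smaller range than Cybb. It had 116, 131, 119 and 123 CPM in stem-like cells of control, Mll3SI, Mll4SI and Mll3/4SI, and 410, 438, 340 and 372 in early cells. Intermediate cells had 1509, 1533, 1340 and 1358 CPM and late cells 1477, 1494, 1327 and 1314. Monocyte-like cells had 286, 307, 238 and 302 CPM, below the early class in every library and above the stem-like class. Intermediate and late ranges overlapped, and the other neighbours in the order did not.

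The cytosolic subunits also had smaller spans than Cybb. Ncf1 had 37.2, 40.1, 35.5 and 37.1 CPM in stem-like cells, 115, 101, 82.3 and 67.8 in early cells and 577, 532, 500 and 439 in late cells of control, Mll3SI, Mll4SI and Mll3/4SI. Its intermediate values were 464, 432, 412 and 451 CPM and its monocyte-like values 107, 99.7, 93.0 and 90.3 CPM. The early and monocyte-like ranges overlapped, with the monocyte-like value lower in control and Mll3SI and higher in Mll4SI and Mll3/4SI, and the intermediate and late ranges overlapped too.

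Ncf4 had 33.3, 39.2, 43.5 and 34.5 CPM in stem-like cells, 98.1, 120, 107 and 87.4 in early cells and 108, 129, 117 and 102 in monocyte-like cells. It had 473, 509, 493 and 415 CPM in intermediate and 515, 537, 521 and 451 CPM in late cells. The overlaps between neighbouring classes were those seen for Ncf1, but the monocyte-like value lay above the early one in every library.

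Rac2, which also serves cell movement, had the smallest span. Its levels were 172, 185, 141 and 183 CPM in stem-like cells, 263, 283, 235 and 291 in early cells and 214, 214, 199 and 222 in monocyte-like cells. Intermediate cells had 801, 827, 717 and 725 CPM and late cells 769, 764, 761 and 759, a range that lay wholly inside the intermediate one. Stem-like, monocyte-like and early ranges did not overlap each other.

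**Figure D1:**
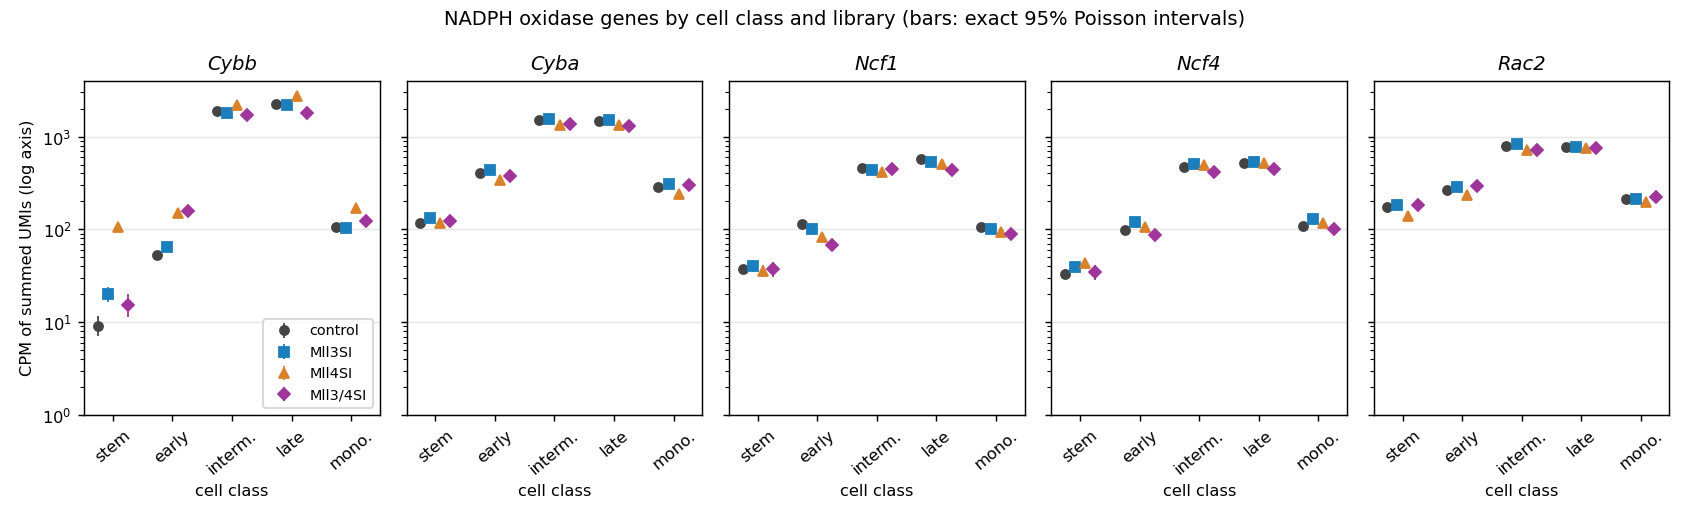
CPM of the 5 NADPH oxidase genes (log axis) in stem-like, early, intermediate and late granulocyte-like and monocyte-like cells, 1 point per library with its exact Poisson 95% interval. Cybb spans the widest range, from 9.17 CPM in control stem-like cells to 2710 CPM in late Mll4SI cells, and its stem-like and early points are the ones that spread most between libraries.

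Against early cells, 5 of 5 genes in late cells were past 1.5-fold higher in each library, where 23.6% (control), 25% (Mll3SI), 21.7% (Mll4SI) and 16.7% (Mll3/4SI) of all genes were. The median log2 ratio of the 5 genes was 2.32, 2.15, 2.27 and 2.35, and that of all genes tested was −0.32, −0.26, −0.34 and −0.43. Cybb had log2 ratios of 5.38, 5.09, 4.18 and 3.49. The other 4 genes lay between 1.38 (Rac2, Mll3/4SI) and 2.68 (Ncf1, Mll3/4SI). The smaller Cybb ratio in Mll4SI and Mll3/4SI came with the higher early level given above.

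Most of this difference already separated the intermediate from the early class. Cybb had log2 ratios of intermediate to early cells of 5.14, 4.78, 3.86 and 3.42, and Cyba of 1.88, 1.80, 1.98 and 1.86. From intermediate to late cells the log2 ratios of the 5 genes ran only from −0.11 to 0.32.

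Early against stem-like cells gave smaller ratios. Past 1.5-fold higher were 5, 5, 4 and 5 of 5 genes in control, Mll3SI, Mll4SI and Mll3/4SI, beside 10.2%, 9.95%, 10.3% and 11.2% of all genes. Cybb in Mll4SI was the exception, with a log2 ratio of 0.48, against 2.40, 1.62 and 3.28 in the other libraries. In control, Cybb reached a mean of 10 CPM only through the early class. Cyba had 1.81, 1.73, 1.51 and 1.58, Ncf1 1.60, 1.31, 1.19 and 0.85, Ncf4 1.53, 1.59, 1.28 and 1.32 and Rac2 0.61, 0.61, 0.74 and 0.66. The 5-gene medians were 1.60, 1.59, 1.19 and 1.32, those of all genes −0.23, −0.26, −0.25 and −0.16. Without doublet removal 3 of 5 genes passed in Mll3SI and 3 of 5 in Mll3/4SI.

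Monocyte-like cells held the genes above the stem-like level too, by a log2 ratio of 3.40, 2.32, 0.68 and 2.94 for Cybb, and by 0.21 to 1.70 for the other 4. They lay below late granulocyte-like cells by 4.38, 4.39, 3.98 and 3.82 for Cybb and by 1.77 to 2.47 for the others.

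The share of cells with a UMI was compared after thinning each cell to 3000 UMIs, since median depth differed between libraries and classes. Cybb was then detected in 2.92, 2.91, 8.16 and 3.25% of stem-like cells of control, Mll3SI, Mll4SI and Mll3/4SI (unthinned 12.3, 7.95, 24.2 and 9.09%) and in 14.9, 14.8, 27.2 and 33.2% of early cells (unthinned 49.9, 45.4, 63.3 and 66.1%). It was detected in 97.8 to 98.8% of intermediate and 97.4 to 99.8% of late cells. Erythroid-like cells, a lineage in which the catalytic subunit has no known role, gave 2.85, 4.53, 11.8 and 1.28% for Cybb (unthinned 11.5, 10.2, 34.1 and 12.9%). The thinned stem-like share of Cybb was thus below the erythroid-like share in Mll3SI and Mll4SI, close to it in control and above it in Mll3/4SI. In Mll3/4SI this rests on 5 of 154 stem-like cells (interval 1.06 to 7.41%) and 1 of 78 erythroid-like cells (0.03 to 6.94%). Unthinned, the order in Mll3/4SI was reversed. The intervals of the thinned stem-like and erythroid-like shares overlapped in every library. The Cybb share therefore does not set stem-like cells apart in any library, and what part of it was background was not tested. Median gene UMIs per cell were 13114 to 18898.5 in stem-like and 12473 to 18449 in erythroid-like cells.

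The other genes were set against erythroid-like cells in the same way. Ncf1 was detected in 9.73, 11.9, 7.14 and 11.7% of thinned stem-like cells and in 3.56, 4.12, 6.30 and 2.56% of erythroid-like cells, and Ncf4 in 10.4 to 11.9% against 2.49 to 6.17%. Cyba was detected in 33.1, 28.3, 22.8 and 33.1% of stem-like and 30.6, 31.3, 18.9 and 33.3% of erythroid-like cells, and Rac2 in 33.7 to 45.5% against 22.0 to 32.9%. In late cells the shares were 71.4 to 81.2% for Ncf1, 73.3 to 79.2% for Ncf4, 97.1 to 98.8% for Cyba and 88.5 to 91.0% for Rac2.

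In a comparison with control over 5 genes and 5 classes, 1 of 25 ratios was past 1.5-fold higher and 0 lower in Mll3SI, 3 higher and 0 lower in Mll4SI, and 2 higher and 1 lower in Mll3/4SI. Depending on the class, 0.658 to 1.58% (Mll3SI), 2.54 to 8.09% (Mll4SI) and 1.67 to 10.9% (Mll3/4SI) of all genes passed in either direction. All 6 higher ratios were of Cybb and the lower one was of Ncf1. They lay in stem-like, early and monocyte-like cells.

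**Figure D2:**
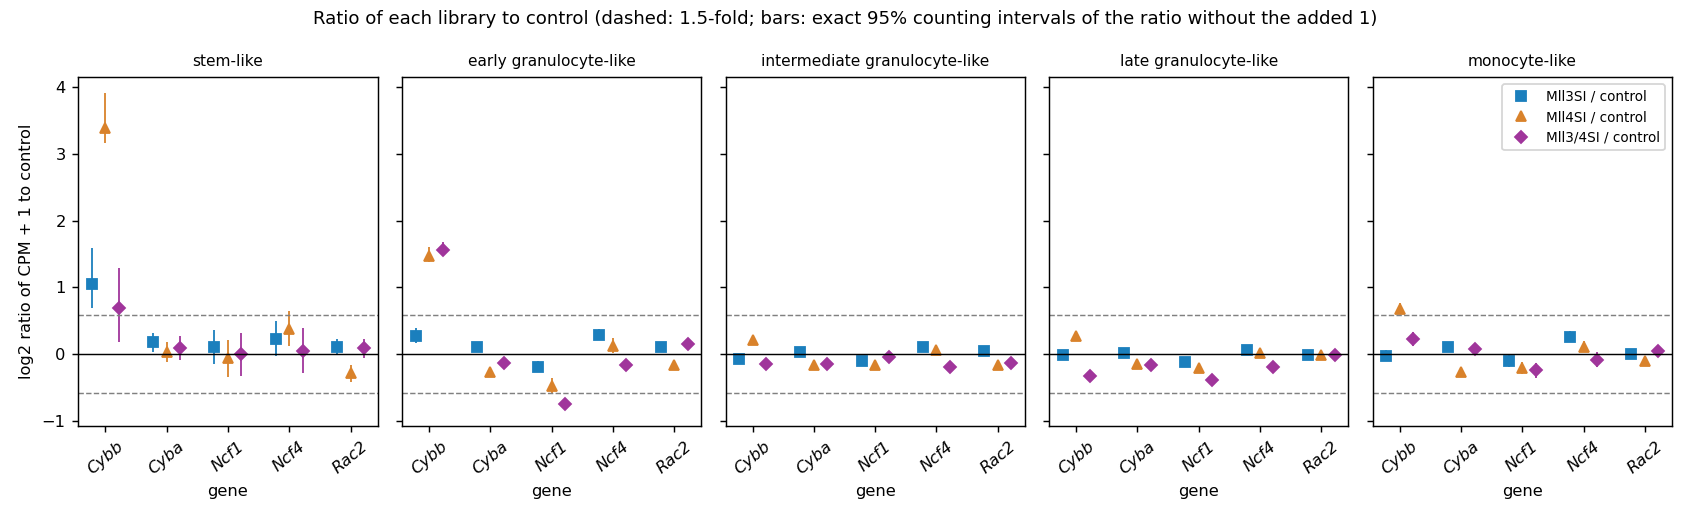
Log2 ratio of CPM + 1 to control for the 5 genes in each class, 1 point for each of Mll3SI, Mll4SI and Mll3/4SI with its exact counting interval, and dashed lines at 1.5-fold. Cybb in stem-like cells of Mll4SI (3.39) and in early cells of Mll4SI (1.48) and Mll3/4SI (1.56) lies farthest from 0, and Ncf1 in early Mll3/4SI cells (−0.75) is the 1 point below the lower line.

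In stem-like cells Cybb was past 1.5-fold higher in all 3 libraries, with a log2 ratio of 1.06 for Mll3SI (0.69 to 1.59), of 3.39 for Mll4SI (3.17 to 3.91) and of 0.68 for Mll3/4SI (0.17 to 1.30). The other 4 genes lay between −0.29 and 0.37. This made 1 of 5 genes in each library, beside 1.58%, 4.94% and 4.29% of all genes in the same order. With 9.17 CPM in control, Cybb reached a mean of 10 CPM only through the library compared with it. Its direction in stem-like cells is therefore not read from these counts. The 5-gene medians were 0.18, 0.03 and 0.09 against 0.01, 0.00 and −0.05 over all genes. The count of Cybb UMIs behind these levels is small (69, 118, 560 and 47), and late granulocyte RNA moved with it. The summed late granulocyte markers in stem-like cells were 563, 1044, 4169 and 639 CPM in control, Mll3SI, Mll4SI and Mll3/4SI, with Mmp8 alone at 0 and only in control.

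Camp, an abundant late granulocyte transcript encoding the cathelicidin peptide, gives a scale for this. Late cells had 33.6, 30, 36.2 and 28.1 Cybb UMIs per 1000 Camp UMIs, and stem-like cells 27.8, 30.7, 42.2 and 39.9. Erythroid-like cells had 26.2, 11.5, 34.5 and 32.9, so in Mll3SI this ratio was not the same in every class. At the late-cell ratio of each library, the Camp counted in stem-like cells would come with 11.1, 19.7, 90.6 and 10.8 CPM of Cybb, beside the 9.17, 20.1, 106 and 15.3 CPM counted. In stem-like cells of control and Mll3SI the counted Cybb thus equals the amount that stands in proportion to Camp within its counting interval, and in Mll4SI it exceeds it by 15.2 CPM and in Mll3/4SI by 4.55 CPM. The same step left 109, 118, 74.1 and 116 CPM of Cyba and 34.3, 35.3, 18.8 and 34.5 CPM of Ncf1 in stem-like cells, so it moved these genes most in Mll4SI. There the log2 ratio to control went from −0.06 to −0.84 for Ncf1, past 1.5-fold, and from 0.03 to −0.55 for Cyba.

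The stem-like Cybb ratios also depended on which cells entered. Among Hashtag1 cells alone the Mll4SI log2 ratio was 0.97, and among Hashtag2 cells alone the Mll3SI ratio was −0.33. At a finer clustering the Mll3/4SI ratio was −1.05. What the hashtags marked is not given in the labels.

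For Cybb in early granulocyte-like cells, control had 52.7 CPM (49.4 to 56.1) and Mll3SI 63.9 (60.7 to 67.1), whereas Mll4SI had 148 (141 to 156) and Mll3/4SI had 157 (153 to 161). Mll4SI and Mll3/4SI lay together above the others, at log2 ratios of 1.48 (1.38 to 1.61) and 1.56 (1.48 to 1.68), and Mll3SI was at 0.27 (0.16 to 0.40). They are also the libraries with Xist, and the part of that in the X-linked Cybb was not tested. Cybb in intermediate and late cells of the same libraries did not pass 1.5-fold.

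For Ncf1 in the same cells the order was the reverse, with control at 115 CPM (110 to 120), Mll3SI at 101 (96.7 to 105), Mll4SI at 82.3 (77.0 to 88.0) and Mll3/4SI at 67.8 (65.2 to 70.6). No 2 of these intervals overlap. Its log2 ratios were −0.19, −0.47 and −0.75 (−0.84 to −0.67), and the last of them was past 1.5-fold, at 0.594 of control on the CPM + 1 scale. Cyba had ratios of 0.10, −0.27 and −0.14, Ncf4 of 0.29, 0.12 and −0.16 and Rac2 of 0.11, −0.16 and 0.15. So 0, 1 and 2 of 5 genes passed 1.5-fold in Mll3SI, Mll4SI and Mll3/4SI, where 0.764%, 2.98% and 10.9% of all genes did. The 5-gene medians were 0.11, −0.16 and −0.14, and those of all genes −0.03, −0.02 and 0.04.

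Late granulocyte RNA moved with the early Cybb level in Mll4SI. The summed late markers in early cells were 581, 1390, 4673 and 1259 CPM, and the Camp in these cells would come with 13, 28.9, 114 and 24.0 CPM of Cybb at the late-cell ratio. Less that amount, Cybb was at 39.7, 35.0, 34.4 and 133 CPM. On this scale, chosen after seeing the data, the Mll4SI log2 ratio was −0.20 and the Mll3/4SI ratio 1.72. Early Mll3/4SI cells had 184 Cybb UMIs per 1000 Camp UMIs and early Mll4SI cells 47.1, against 137 in control and 66.5 in Mll3SI. For Ncf1 the same step left 111, 93.7, 61.3 and 61.9 CPM, with log2 ratios of −0.25, −0.85 and −0.84. On that scale Mll4SI too was past 1.5-fold, whereas as counted it was at −0.47 and was not. Whether Camp in early cells comes with Ncf1 at the late-cell ratio was not tested.

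**Figure D3:**
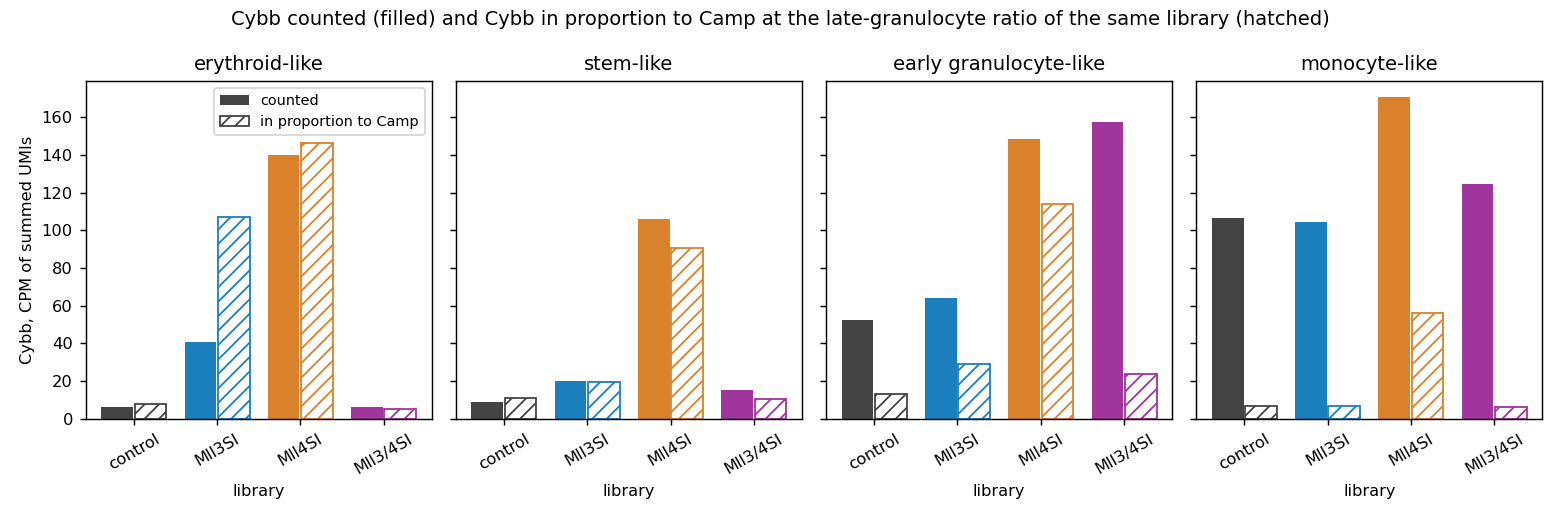
Cybb CPM as counted (filled bars) and the Cybb CPM that stands in proportion to Camp at the ratio of late cells of the same library (hatched bars) in erythroid-like, stem-like, early and monocyte-like cells of each library. In stem-like cells the bars of a library are close to each other (106 and 90.6 CPM in Mll4SI), while in early Mll3/4SI cells the counted 157 CPM stands far above 24.0 CPM.

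The early class had a different makeup in Mll3/4SI. Clusters 6 and 9 together held nearly all early cells of control, Mll3SI and Mll4SI, but cluster 13 held 78.7% of those of Mll3/4SI and at most 0.79% of those of any other library. Of its 1142 cells, 1137 were from Mll3/4SI, so it may be that library and not a type. Its leading genes were Mpo, Ly6e, Ms4a6c, Cpa3, Ms4a3, Calr, Prtn3, Ctsg, Plac8 and Xist. Early Mll3/4SI cells as a whole had summed stem markers of 456 CPM against 93.2 to 112 in the other libraries and summed basophil and mast cell markers of 569 against 96.5 to 111, while summed monocyte markers were at 1173 against 1205 to 1467. Within that sum 7 of 10 monocyte markers were past 1.5-fold above control in early Mll3/4SI cells, and 0 below, counted without a floor of 10 CPM. Without that floor 11.7% of all genes with a UMI passed in either direction. Among the higher markers were Csf1r at 19.8 against 3.76 CPM, Ly86 at 42.1 against 12.6 and F13a1 at 127 against 74.3. Early granulocyte markers of early Mll3/4SI cells summed to 30548 CPM against 35475 to 38183. The part of these in the Cybb and Ncf1 levels was not tested.

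Within the shared clusters the 2 genes parted. In clusters 6 and 9 together, Cybb had 131 CPM in Mll3/4SI and 52.7 in control, a log2 ratio of 1.30 (1.18 to 1.44), with 0.78 (0.59 to 0.99) in cluster 6 and 1.68 (1.53 to 1.87) in cluster 9. Camp went from 278 to 467 CPM in cluster 6 and from 479 to 2240 CPM in cluster 9 between control and Mll3/4SI. Ncf1 had 108 and 115 CPM there, a ratio of −0.08 (−0.20 to 0.03), with −0.06 in cluster 6 and −0.10 in cluster 9. In cluster 13, Cybb was at 165 CPM, 1.63 (1.55 to 1.75) above all early control cells, and Ncf1 at 55.9 CPM, or −1.03 (−1.13 to −0.94). The lower Ncf1 level of early Mll3/4SI cells thus lay in cluster 13, and the higher Cybb level in all 3 clusters. Cyba, Ncf4 and Rac2 had ratios of 0.34, 0.23 and 0.30 in the shared clusters and of −0.31, −0.30 and 0.09 in cluster 13. In Mll4SI, the Cybb ratio to control was 1.19 in cluster 6 and 1.74 in cluster 9, and the Ncf1 ratio −0.50 and −0.49.

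**Figure D4:**
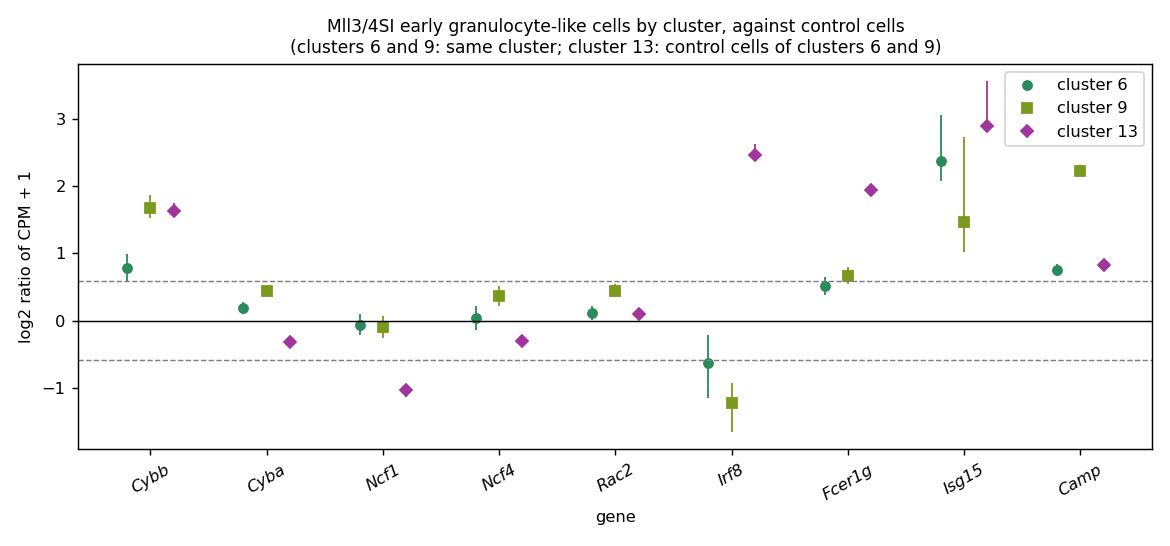
Log2 ratio of CPM + 1 to control in Mll3/4SI early granulocyte-like cells, for clusters 6 and 9, which other libraries share, and cluster 13, which is nearly all Mll3/4SI, over the 5 oxidase genes and Irf8, Fcer1g, Isg15 and Camp, with exact counting intervals and dashed lines at 1.5-fold. Cybb lies above 0 in all 3 clusters, Ncf1 lies near 0 in clusters 6 and 9 and at −1.03 in cluster 13, and Irf8 changes sign between the shared clusters and cluster 13. Isg15 in early cells reached a mean of 10 CPM only through Mll3/4SI, so its direction is not read.

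Among monocyte-like cells, those of control had 106 CPM of Cybb (102 to 111) and those of Mll3SI 105 (100 to 109), beside 171 for Mll4SI (165 to 176) and 124 for Mll3/4SI (117 to 132). Mll4SI lay above the rest, at a log2 ratio of 0.68 (0.60 to 0.76), and the others were at −0.02 and 0.22 (0.12 to 0.33). Cybb in Mll4SI was past 1.5-fold, 1 of 5 genes beside 2.54% of all genes, and 0 of 5 passed in Mll3SI and Mll3/4SI, beside 0.658% and 1.67%. Summed late markers were 358, 392, 2352 and 363 CPM, and less the amount in proportion to Camp, Cybb was at 99.7, 97.7, 115 and 118 CPM, which leaves a Mll4SI ratio of 0.20. Cyba had ratios of 0.10, −0.27 and 0.08, Ncf1 of −0.11, −0.20 and −0.25 and Ncf4 of 0.25, 0.11 and −0.09, and Rac2 stayed within 0.10 of control.

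In intermediate granulocyte-like cells 0 of 5 genes passed 1.5-fold in any library, beside 1.24%, 8.09% and 2.79% of all genes in Mll3SI, Mll4SI and Mll3/4SI. Cybb had log2 ratios of −0.08, 0.20 and −0.15, Ncf1 of −0.10, −0.17 and −0.04 and Cyba of 0.02, −0.17 and −0.15. Ncf4 was at 0.10, 0.06 and −0.19 and Rac2 at 0.05, −0.16 and −0.14. The 5-gene medians were 0.02, −0.16 and −0.15, against 0.01, 0.02 and −0.01 over all genes.

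In late granulocyte-like cells 0 of 5 genes passed 1.5-fold, beside 1.03%, 4.29% and 5.38% of all genes in Mll3SI, Mll4SI and Mll3/4SI. Control had 2239 CPM of Cybb (2223 to 2255) and Mll3SI 2210 (2192 to 2227), Mll4SI lay highest at 2710 (2698 to 2721) and Mll3/4SI lowest at 1776 (1763 to 1788). The log2 ratios were −0.02, 0.28 and −0.33. Ncf1 had −0.12, −0.21 and −0.39 (−0.42 to −0.37), Ncf4 0.06, 0.02 and −0.19 and Cyba 0.02, −0.15 and −0.17. Rac2 stayed within 0.02 of control. The 5-gene medians were −0.01, −0.01 and −0.19, against 0.01, −0.03 and −0.05 over all genes.

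The libraries filled the late clusters differently. Control and Mll3SI late cells lay mostly in clusters 3, 4 and 10, Mll4SI late cells in clusters 0 (41.5%), 1 (31.1%) and 12 (15.3%), and Mll3/4SI late cells in clusters 15 (43.2%) and 3 (25.5%). Clusters 0 and 18 came to 96.8% and 94.8% from Mll4SI and cluster 15 to 99.6% from Mll3/4SI, so these may be libraries and not types. Clusters 12 and 1 also came mostly from Mll4SI, at 87.7% and 80.7%. Cybb was lowest in cluster 15, at 1307 CPM, and highest in clusters 1 (3206, 3333, 3643 and 3232 CPM in control, Mll3SI, Mll4SI and Mll3/4SI) and 12 (3053 in control and 3888 in Mll4SI). In clusters 3, 4 and 10 together, Cybb was at 2110 CPM in Mll3/4SI and 2170 in control, a log2 ratio of −0.04, and at 0.17 in the 104 Mll4SI cells there. Ncf1 had −0.14 and −0.33 in the same clusters, and Ncf4 408 CPM in Mll3/4SI against 520 in control, or −0.35. Cluster by cluster, over those with at least 50 cells in both libraries, Mll4SI differed from control in 3 late clusters by 0.18 to 0.35 for Cybb and by −0.28 to −0.17 for Ncf1, about as in the class as a whole. Over 4 late clusters Mll3/4SI differed by −0.05 to 0.01 for Cybb, nearer to 0 than in the class, and by −0.46 to −0.23 for Ncf4, farther from it.

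Cluster 15 held the genes unevenly. Against control cells of clusters 3, 4 and 10, Cybb was at −0.73 (−0.75 to −0.71) and Ncf1, at 343 against 563 CPM, at −0.71 (−0.75 to −0.68). Cyba at −0.10, Ncf4 at −0.05 and Rac2 at 0.13 were near the control level. Cluster 15 was led by Cstdc5, Cstdc4 and Stfa1, of the stefin A family, and had 183 CPM of Chil3, a chitinase-like granule gene, against 11356 CPM in those control cells. Cluster 12 held 70 late cells of control and 1026 of Mll4SI. Over control cells of clusters 3, 4 and 10, these had Cybb log2 ratios of 0.49 and 0.84 and Ncf1 ratios of 0.68 and 0.52. Their Ncf4 ratios were −0.43 and −0.16.

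**Figure D5:**
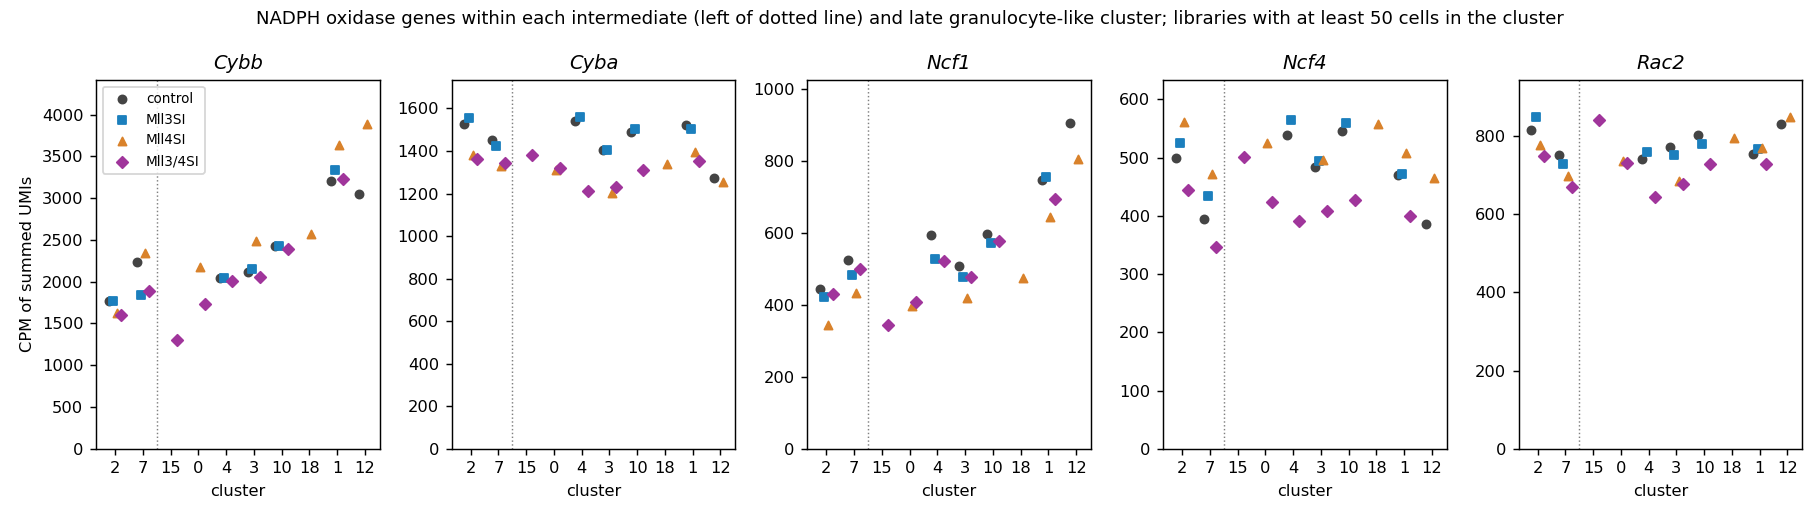
CPM of the 5 genes within each intermediate (2 and 7) and late granulocyte-like cluster, 1 point per library that holds at least 50 cells of it, the intermediate clusters left of the dotted line. Among the late clusters Cybb and Ncf1 are lowest in cluster 15 (1307 and 343 CPM) and highest in clusters 1 and 12.

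Other genes of the pathway were read from lists, counting only genes that averaged 10 CPM or more over the cells compared. The shares of all genes serve as background, and in late against early cells 23.6, 25, 21.7 and 16.7% were past 1.5-fold higher, and 41.9, 40.4, 41.8 and 43.8% lower, in control, Mll3SI, Mll4SI and Mll3/4SI. In early cells against control 0.764, 2.98 and 10.9% passed in either direction. Among 7 other parts of the oxidase and its assembly, 0 passed 1.5-fold from control in any class or library. In late against early cells 3 of 7 were past 1.5-fold higher in each library, with medians of 0.49, 0.51, 0.57 and 0.42. Hvcn1, the proton channel that balances the oxidase's charge, went from 36.3 to 121 CPM in control, and Arhgdib, which holds Rac proteins in the cytosol, from 1121 to 2764 CPM. Of 9 genes of other NADPH oxidases and their partners, 0 had a mean of 10 CPM in any class.

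Of 12 receptors that trigger the burst, 10 reached 10 CPM in late against early cells, some of them only through the late class, so their count is not read. In control, Itgam, the alpha chain of CD11b/CD18, went from 36.4 to 636 CPM. The formyl peptide receptor Fpr2 (0.221 CPM in early and 80.1 in late cells) and the complement receptor C5ar1 (0.719 and 104) reached 10 CPM only through the late class. Their direction is therefore not read. Against control, 4 of 8 were past 1.5-fold higher in early Mll3/4SI cells (median 0.56), among them Fcer1g, the signalling chain of Fc receptors, at 422 against 127 CPM, Csf2rb at 59.4 against 19.8 and Itgam at 65.3 against 36.4. In early Mll4SI cells 1 of 8 was (Csf2rb, 30.5 CPM) and in early Mll3SI cells 0 of 8. In late cells 1 of 10 was higher in Mll4SI (Fpr2, 124 against 80.1 CPM) and 1 of 10 lower in Mll3/4SI (C5ar1, 67.4 against 104 CPM). Of all genes, 4.29% and 5.38% passed in either direction in these 2 comparisons. The antibody to CD11b, the protein of Itgam, took 2.85, 3.18, 4.81 and 4.09% of surface antibody UMIs in early cells, 30.1, 26.6, 30.3 and 29.3% in intermediate and 19.5, 18.8, 22.4 and 27.4% in late cells, so it too was low in the early class of every library.

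Of 15 genes that signal to the oxidase, 9, 9, 8 and 3 were past 1.5-fold higher in late than early cells, with medians of 0.61, 0.73, 0.70 and 0.23, and 0, 0, 1 and 1 were lower. The 3 of 15 in Mll3/4SI are near the share of all genes. Prkcb, the protein kinase C isoform that phosphorylates p47phox, went from 75.7 to 583 CPM in control and from 77.3 to 485 CPM in Mll3/4SI. Syk went from 62.8 to 169 CPM and Dock2, an exchange factor for Rac, from 183 to 475 CPM in control. In early Mll3/4SI cells 3 of 15 were past 1.5-fold above control, the Rac exchange factors Prex1 (33.3 against 15 CPM) and Vav3 (423 against 262) and the kinase Prkcd (67.5 against 42.7). In early Mll3SI and Mll4SI cells 0 of 15 were. In stem-like Mll4SI cells, which also held late granulocyte RNA as given above, 4.94% of all genes passed 1.5-fold. There Prkcb was at 25.7 against 7.57 CPM, the 1 of 15 past it, and Itgam at 36.5 against 13.6 CPM, the 1 of 6 receptors. The 1 of 15 is near that share, and Prkcb reached a mean of 10 CPM only through Mll4SI.

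Of 11 NADPH supply genes 9 reached 10 CPM, of which 2, 2, 3 and 3 were past 1.5-fold higher and 2, 3, 3 and 3 lower in late than early cells, with medians of 0.39, 0.36, 0.52 and 0.54. The higher counts in control and Mll3SI are near the share of all genes. G6pdx, the first enzyme of the pentose phosphate pathway, went from 18.5 to 125 CPM and Nadk, the NAD kinase, from 49.6 to 208 CPM in control, while mitochondrial Idh2 went from 228 to 9.90. Idh2 reached a mean of 10 CPM there only through the early class, so its direction is not read. Of early against stem-like ratios 5, 5, 6 and 7 of 9 were past 1.5-fold higher, beside the 10.2, 9.95, 10.3 and 11.2% of all genes. Of 23 genes that handle peroxide and superoxide 17 reached 10 CPM, and of these 11, 11, 11 and 10 were past 1.5-fold lower in late than early cells and 1, 2, 3 and 3 higher, with medians of −1.68, −1.72, −1.64 and −1.21. Myeloperoxidase, Mpo, which uses hydrogen peroxide to make hypochlorous acid, went from 5179 to 57.6 CPM in control. In late Mll3/4SI cells 1 of 9 supply genes was past 1.5-fold above control (Me2, 131 against 68.7 CPM) and 1 below (Idh1, 29.2 against 45.2 CPM), beside 5.38% of all genes in either direction. In early Mll3/4SI cells 0 of 9 supply genes passed 1.5-fold, and 2 of 17 handling genes were lower, Gsr (451 against 835 CPM) and Gclm (67.7 against 113), of which Gsr was within 0.05 of control in clusters 6 and 9 and at −1.32 in cluster 13.

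Of 9 transcription factor genes, 4, 4, 3 and 1 were past 1.5-fold higher in late than early cells and 3 in each library lower. The 1 in Mll3/4SI and the lower counts are near the shares of all genes (16.7% higher in Mll3/4SI, 40.4 to 43.8% lower). Irf8, at 31.8 CPM in early and 3.68 in late control cells, reached a mean of 10 CPM there only through the early class. Cebpe, a factor of granulocyte maturation, was at 8.64 CPM in stem-like, 154 in early and 621 in late control cells. In early Mll3SI and Mll4SI cells 0 of 9 were past 1.5-fold from control. In early Mll3/4SI cells 4 of 9 were above and 2 below it (median 0.50), beside 10.9% of all genes in either direction. Irf8, a factor of monocyte and dendritic cell fate, had 142 against 31.8 CPM and Runx1 538 against 307. Irf8 had log2 ratios of −0.63 in cluster 6, −1.23 in cluster 9 and 2.46 in cluster 13. Cybb, with a higher level in all 3 clusters, thus differed from Irf8 in cluster pattern, and whether either bears on the other was not tested.

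Of 15 interferon-stimulated genes, 9 reached a mean of 10 CPM in early cells of Mll3/4SI and control, but 4 in early cells of Mll3SI or Mll4SI and control. Those that reached it only through Mll3/4SI had to be higher there, so no count is read from this list in that library. In Mll3SI and Mll4SI, 0 of the 2 to 10 genes that reached it were past 1.5-fold above control in any class. In early cells Isg15 (31.2 CPM in Mll3/4SI, 3.81 in control) and Oasl2 (23.9 and 4.15) reached that mean only through Mll3/4SI. Their direction is therefore not read either.

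Over the 20 library and class values of log2 CPM + 1, the 5 genes had Pearson r between 0.925 (Cybb with Rac2) and 0.991 (Ncf1 with Ncf4). These points share libraries and depth and differ mainly by class, so r is a description only. Among 8226 genes with a mean of at least 10 CPM, the most alike to Cybb were Stx11 (0.989), Vsir (0.982) and Cdh23 (0.981). Those to Cyba were 1110008P14Rik (0.990), Fanca (0.989) and Hmgn2 (0.989), and those to Ncf1 were Ncf4 (0.991), Galns (0.989) and Fanca (0.988). Ncf4 was closest to Galns (0.995), Vsir (0.992) and Ncf1 (0.991), and Rac2 to Itgb2, the CD18 chain, Adgre5 and Tnnt1 (0.988 each).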

How the data were processed

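The values were UMI counts per gene or antibody and cell barcode, deposited by the authors and made with Cell Ranger 7.1.0, per the submitters' processing notes, which also name build mm10. The annotation, strand setting and cell-calling settings are not given in the sources used here. No barcode had fewer than 500 gene UMIs.

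Cells with at least 500 genes, at least 1000 UMIs and at most 10% mitochondrial UMIs were kept, and the highest Scrublet scores, 0.8% of cells per 1000 barcodes, were removed as doublets (451, 646, 1045 and 431 cells from control, Mll3SI, Mll4SI and Mll3/4SI). The remaining 31549 cells were clustered with 2000 variable genes, 30 principal components, 15 neighbours and Leiden resolution 1, giving 27 clusters. The software was Python 3.11.15 with scanpy 1.11.5 and leidenalg 0.10.2 on igraph 0.11.9 for clusters, scikit-learn 1.9.0 for components, scipy 1.17.1 for intervals, matplotlib 3.10.9 for plots, and pandas 2.3.3 on numpy 2.4.6. Counts were summed per library and class and given as CPM, ratios used CPM + 1, and the scripts were tested on simulated data. Genes named from lists were the 3 with the largest absolute ratio among those at 10 CPM or more. The genes given for single clusters and the antibodies were chosen after their values were seen. The members and lists were chosen with earlier results of these data known. Gene IDs matched GENCODE M21 for 32158 of 32285. Proteins, and promoters of Ncf4 and Rac2, were not used here, and some genes of the lists are not reported here by name.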

Additional observations from a re-analysis of the deposited data

Results flagged for a closer look

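The Cybb ratio to control differed between classes in 2 libraries. In Mll3SI it was 1.06 (log2) in stem-like and −0.08 in intermediate granulocyte-like cells, a difference of 1.14. The stem-like Cybb of control and Mll3SI lay within counting error of the amount in proportion to Camp, and among Hashtag2 cells alone the stem-like ratio was −0.33. In Mll3/4SI it was 1.56 in early and −0.33 in late granulocyte-like cells, a difference of 1.90. In each case the intervals lay on opposite sides of 0, and with 1 library per group the differences were not tested.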

How the results depend on the processing

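The groups have 1 library each, so no library could be left out. No paired analysis was possible because each group has 1 library and the labels carry no replicate numbers. Of the 7 ratios to control past 1.5-fold, 6 or 7 kept their sign and 5 to 7 stayed past 1.5-fold under each of the 12 settings run over all of them. Of the 39 stage ratios past 1.5-fold, 33 stayed past it without doublet removal, 38 among Hashtag2 cells alone or with 10 CPM added, and all 39 under the other 9 settings. The Mll3SI count of higher ratios (1) was 3 among Hashtag1 cells alone and 0 among Hashtag2 cells alone or as a mean over cells, and its lower count (0) was 1 among Hashtag2 cells alone. The Mll3/4SI higher count (2) was 1 at Leiden resolution 2, among Hashtag1 cells alone or with 10 CPM added. Its lower count (1) was 2 at Leiden resolution 2, and 0 without clusters over 80% from 1 library, without doublet removal, or without cluster 13, a choice made after seeing the data. Without doublet removal the Mll4SI lower count (0) was 1, and the early against stem-like count was 3 in Mll3SI and in Mll3/4SI. These stage counts do not hold all the stage ratios that fell within 1.5-fold there. Of 40 stage ratios 39 kept their sign without doublet removal, among them each of the 39 past 1.5-fold. The largest shift was 2.18 (log2). Among the ratios to control past 1.5-fold, the Cybb sign reversed in stem-like Mll3/4SI cells at Leiden resolution 2 (−1.05). It also reversed in stem-like Mll3SI cells among Hashtag2 cells alone (−0.33). In early Mll4SI cells it reversed less the amount in proportion to Camp (−0.20), which follows from the Camp counted there. For the other settings the cause was not tested. Depth limits Cybb in stem-like cells, where 3 of 4 libraries had 47 to 118 UMIs.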
